A study of Homo sapiens with 12 samples.

Results

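The genes described here make proteins of the extracellular matrix that are not collagens. They are the adhesive glycoproteins FN1 and EDIL3, the matricellular proteins SPARC, THBS1, TNC and POSTN, the elastic-fibre proteins FBN1, FBN2 and FBLN5, and the crosslinking enzyme LOX. These 10 genes were taken by name, with each probe set that the array annotation gave to 1 of them alone. They were chosen with earlier results of these data known. Shares over all genes stand beside their counts as descriptions, not as a test. All 10 of 19775 genes were measured, on 36 of 41097 single-gene probe sets. In the lapatinib-selected line 8 of the 10 transcripts rose against its parent, as 21.0% of all genes did, while FBLN5 fell, as 30.3% did. In the line with active p65, EDIL3, FBN1, FBN2 and FN1 were lower and FBLN5 higher than in the empty-vector line. The empty-vector line itself differed from the parent in 6 of the 10, where 23.7% of all genes were called.

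The study used 4 lines made from SKBR-3, a human breast carcinoma cell line with ERBB2 (HER2) amplification, with 3 biological replicate cultures of each on 3′ expression arrays. SKR6LR was SKR6 exposed over several months to lapatinib, which blocks the kinases of EGFR and HER2, with the dose raised between 0.2 and 5 µM, and the growth protocol states that cells it spells SKLR were kept in 0.2 µM. SKR6CA was SKR6 transduced with a retrovirus for a constitutively active form (CAp65) of the NF-kB subunit relA/p65 and selected with puromycin. SKR6-Vector was SKR6 transduced with the empty retroviral vector pQCXIP and selected with puromycin. SKR6, the line from which the other 3 were made, was the fraction of SKBR-3 with elevated HER2 obtained by fluorescence-activated cell sorting, and received no drug and no virus. All 4 lines were seeded in the same serum-containing medium for 48 h before RNA extraction. Each derived line is 1 line, and whether its replicates were derived separately is not given, so a property of 1 derivation cannot be told apart from an effect of its treatment. P-values therefore rest on the spread among cultures of a line, pooled over the 4 lines for each probe set, which may be partly technical.

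Fibronectin, encoded by FN1, forms fibrils on cells through integrins and is a scaffold on which other matrix proteins assemble. Matricellular proteins are secreted into the matrix but act mainly as modulators of adhesion and growth factor signals, with little structural role. Fibrillins, encoded by FBN1 and FBN2, build microfibrils that bind latent TGF-beta complexes and guide the deposition of elastin, to which fibulin-5 (FBLN5) binds, and lysyl oxidase (LOX) crosslinks elastin and collagens. In breast tumours much of this matrix is made by stromal fibroblasts, and carcinoma cells that have undergone epithelial to mesenchymal transition can make it too.

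Values are log2 expression made with robust multi-array averaging (RMA), in which a difference of 1 is a doubling. Each gene is described by its brightest probe set, called leading here, and counts and differences are those of this probe set unless another is named. Levels are not compared between genes, since probe sets differ in brightness for the same amount of RNA. A difference was called when its adjusted p in limma, adjusted by Benjamini and Hochberg over all 41097 probe sets, was under 0.05. Array medians ran from 5.74 to 5.77, and a value near 4 is close to the low end of the scale, where the files carry no detection call. The replicates of SKR6LR varied most, with a pooled SD over all probe sets of 0.213, against 0.114 in SKR6CA and 0.103 in both SKR6-Vector and SKR6. For actin, the control probe set at the 3′ end read higher than that at the 5′ end by 2.32 in SKR6LR replicate 3 and by 1.03 to 1.73 in the other 11 arrays, a measure of RNA quality whose part in the results was not tested.

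Epithelial and ERBB2 amplicon markers were high in all lines, but several were lower in SKR6LR. Of 6 epithelial markers 5 were above the median of all values in each line, EPCAM averaging 13.58 in SKR6LR, 13.31 in SKR6CA, 13.65 in SKR6-Vector and 13.47 in SKR6, while CDH1 was at 4.24 to 4.28. KRT19 was lower in SKR6LR than in SKR6 by 0.94 (adjusted p = 1.11e-06 in limma), and KRT8, KRT18 and CLDN4 were higher by 0.45, 0.63 and 0.33. ERBB2 averaged 12.45 in SKR6LR, 14.04 in SKR6CA, 13.92 in SKR6-Vector and 13.83 in SKR6, and all 5 amplicon genes were called lower in SKR6LR than in SKR6, with differences of -1.38 (ERBB2) to -0.52 (PGAP3). The RELA probe sets differed between SKR6CA and SKR6-Vector by -0.06 (adjusted p = 0.771 in limma) and 0.20 (adjusted p = 0.239); whether they match the transduced CAp65 transcript is not given in the sources used here, so they do not check that label. Of 10 fibroblast markers, COL3A1 was higher in SKR6LR than in SKR6 (9.49 against 4.57, adjusted p = 4.14e-12 in limma), FAP was higher by 0.31 (adjusted p = 0.0247), and the other 8, among them COL1A1, COL1A2, DCN, LUM and PDGFRA, were not called. The mean over the list was 5.79 to 5.87 in SKR6LR arrays, 5.31 to 5.40 in SKR6CA, 5.35 to 5.39 in SKR6-Vector and 5.37 to 5.40 in SKR6. The endothelial marker CDH5 averaged 8.98 in SKR6LR, 8.22 in SKR6CA, 8.10 in SKR6-Vector and 5.14 in SKR6, and the monocyte marker CD14 6.73 in SKR6LR and 5.02 to 5.15 in the other 3 lines. Of 5 endothelial markers, CDH5 and VWF (0.62, adjusted p = 0.0035 in limma) were called higher in SKR6LR than in SKR6, TEK lower (-0.22, adjusted p = 0.0275), and neither PECAM1 nor KDR, which was at 3.81 to 3.95 in all lines, was called. Of 4 leukocyte markers CD14 was called higher, and PTPRC, at 3.98 to 4.22 in all lines, CD3E and ITGAM were not called. DCN, LUM and PDGFRA were at 4.40 to 5.45 in all lines. The part of any of these markers in the results was not tested. In bulk RNA, more cells with a transcript and more transcript per cell cannot be told apart.

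**Figure D1:**
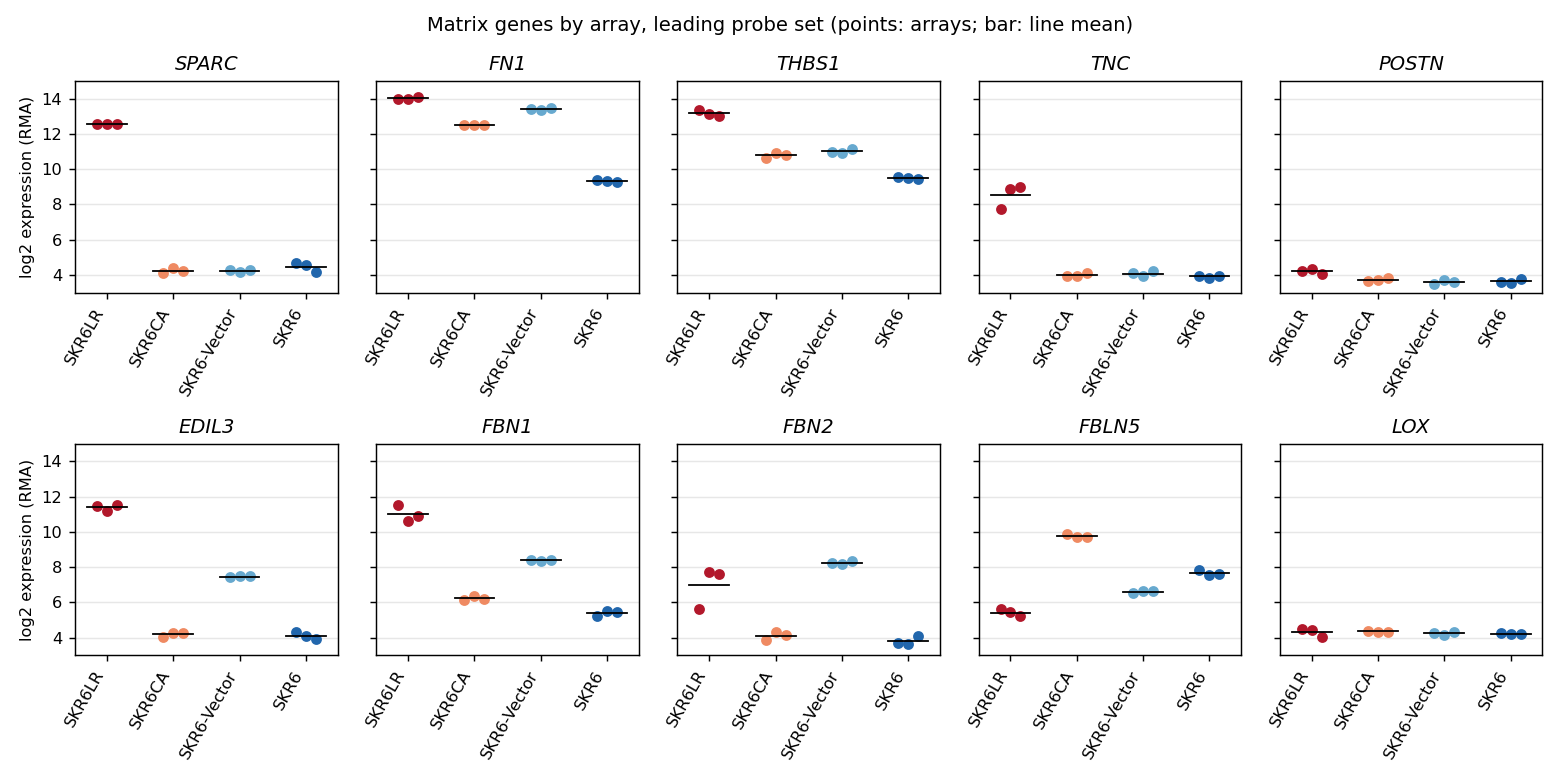
Log2 expression (RMA) of the leading probe set of each of the 10 genes in every array, with 3 points per line and a bar at the line mean. SPARC and TNC stand high in SKR6LR and near the low end in the other 3 lines, EDIL3, FBN1 and FBN2 have SKR6-Vector well above SKR6CA and SKR6, and FBLN5 is highest in SKR6CA and lowest in SKR6LR.

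Of these genes 5 stand for the 3 patterns met below. SPARC was high in the lapatinib-selected line alone. FN1, FBN1 and FBN2 were also high in the empty-vector line, and FN1 in the active-p65 line too. FBLN5 was high in the active-p65 line. The stretches just before the transcription starts of these 5 genes are shown. They are the 250 bases before the start in RefSeq (GRCh38.p14), printed 5′ to 3′ on the gene's strand, which is the minus strand for all 5, and FBLN5 has 2 annotated starts. Capitals mark matches to TGACGTCA (a cAMP response element), GGAATG (bound by TEAD factors), TGANTCA (bound by AP-1), each on both strands, and TATAA (the TATA motif) on the printed strand; no matches overlap.
SPARC, chr5:151686916-151687165: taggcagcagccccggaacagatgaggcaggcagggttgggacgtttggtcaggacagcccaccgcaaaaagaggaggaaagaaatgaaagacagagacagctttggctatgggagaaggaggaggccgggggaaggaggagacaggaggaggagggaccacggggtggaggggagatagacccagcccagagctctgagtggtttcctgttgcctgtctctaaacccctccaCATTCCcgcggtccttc
FN1, chr2:215436069-215436318: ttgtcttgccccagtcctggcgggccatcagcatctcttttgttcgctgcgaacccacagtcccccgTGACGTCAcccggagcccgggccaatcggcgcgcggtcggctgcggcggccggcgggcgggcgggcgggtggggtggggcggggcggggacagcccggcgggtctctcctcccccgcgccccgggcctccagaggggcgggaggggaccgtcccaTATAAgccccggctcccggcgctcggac
FBN1, chr15:48644971-48645220: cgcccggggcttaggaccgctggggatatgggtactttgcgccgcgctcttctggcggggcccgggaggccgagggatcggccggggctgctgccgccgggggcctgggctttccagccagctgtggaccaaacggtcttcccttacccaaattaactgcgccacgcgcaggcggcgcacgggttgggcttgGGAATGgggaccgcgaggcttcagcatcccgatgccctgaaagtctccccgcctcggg
FBN2, chr5:128538246-128538495: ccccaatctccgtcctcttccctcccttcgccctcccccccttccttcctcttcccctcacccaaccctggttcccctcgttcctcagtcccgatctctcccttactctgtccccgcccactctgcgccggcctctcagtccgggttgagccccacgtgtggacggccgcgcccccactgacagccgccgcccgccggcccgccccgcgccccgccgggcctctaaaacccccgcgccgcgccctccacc
FBLN5 start 1, chr14:91947695-91947944: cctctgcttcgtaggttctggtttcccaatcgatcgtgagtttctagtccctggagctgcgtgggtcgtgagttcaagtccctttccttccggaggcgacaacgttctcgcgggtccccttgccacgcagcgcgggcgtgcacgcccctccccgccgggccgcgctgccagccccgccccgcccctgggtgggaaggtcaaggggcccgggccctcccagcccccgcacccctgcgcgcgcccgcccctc
FBLN5 start 2, chr14:91947033-91947282: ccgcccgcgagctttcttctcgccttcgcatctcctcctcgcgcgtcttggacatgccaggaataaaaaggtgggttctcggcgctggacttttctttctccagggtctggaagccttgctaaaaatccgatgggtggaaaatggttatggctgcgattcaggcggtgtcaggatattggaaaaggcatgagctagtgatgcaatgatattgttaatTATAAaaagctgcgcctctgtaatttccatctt
All 10 genes had an entry, with 14 such windows in all. The 2 windows of EDIL3 overlap each other, as do 2 of the 3 of LOX, so the 14 are not all separate stretches. The NF-kB consensus motif, searched on both strands, occurred in 0 of the 14 windows, and in 9.96% of the 35116 windows of all genes. GGAATG occurred in 3 of the 14, at 17 bases before the start in SPARC, 46 in THBS1 and 58 in FBN1, and in 11.9% of all windows. TATAA occurred in 4, those of FN1 (28 bases before the start), TNC (27), POSTN (29) and the second start of FBLN5 (33), and in 13.6% of all windows. TGACGTCA occurred in 1, that of FN1 (183 bases before the start), and in 1.65% of all windows, and TGANTCA in 1, that of POSTN, and in 6.57%. The motif letters were chosen with these windows in view, so the shares over all windows are set beside them as descriptions only. Such matches describe letters only, and their absence says nothing of binding outside these windows.

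SKR6LR was compared with SKR6, the line it came from, to see what had changed in cells kept under lapatinib. This comparison cannot tell past selection from any lapatinib present in culture. Of the 10 genes 8 were higher, 1 was lower and 1 was not called, where 21.0% of all 19775 genes were called higher and 30.3% lower. The median difference over the 10 was 4.15, against -0.06 over all genes. As the genes were chosen with earlier results known, these figures do not test them against other genes. For SPARC, TNC, POSTN, EDIL3 and FBN2 the SKR6 values were near the low end of the scale, so no fold is given for them.

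SPARC, whose product binds collagen and counters cell spreading, was at 12.59, 12.56 and 12.58 in SKR6LR, against 4.70, 4.54 and 4.18 in SKR6. It was at 4.11, 4.38 and 4.20 in SKR6CA and 4.27, 4.17 and 4.29 in SKR6-Vector. All 3 SKR6LR arrays stood far above the other 9, which overlapped each other. The difference between SKR6LR and SKR6 was 8.11 ± 0.11 (SE), with an adjusted p of 1.95e-14 in limma. The second probe set of the gene, 212667_at, gave 6.28 (adjusted p = 2.73e-13 in limma).

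TNC encodes tenascin-C, an anti-adhesive protein of developing and wounded tissue. It was at 7.75, 8.85 and 9.01 in SKR6LR, against 3.96, 3.85 and 3.92 in SKR6. SKR6CA had 3.96, 3.95 and 4.11 and SKR6-Vector 4.09, 3.92 and 4.20. Only the SKR6LR arrays stood above the low end, with replicate 1 below the other 2. The difference from SKR6 was 4.63 ± 0.24 (SE; adjusted p = 3.13e-09 in limma). The second probe set, 216005_at, rose by 0.88 (adjusted p = 1.65e-05), and the third, 237169_at, was 0.23 higher and not called (adjusted p = 0.0519).

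THBS1 encodes thrombospondin-1, an activator of latent TGF-beta and an inhibitor of angiogenesis. All lines stood well above the low end of the scale on its leading probe set, while 239336_at averaged 4.25 in SKR6. The leading probe set was at 13.33, 13.14 and 13.04 in SKR6LR, against 9.57, 9.49 and 9.42 in SKR6. The difference was 3.68 ± 0.10 (SE; adjusted p = 4.46e-12 in limma), and the arrays of both lines lay apart. All 7 probe sets of the gene were called higher in SKR6LR, by 0.77 to 5.19, where 20.2% of all single-gene probe sets were.

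POSTN, which encodes periostin, a ligand of integrins and mostly a product of stromal cells, stayed near the low end of the scale everywhere. Its leading probe set was at 4.25, 4.32 and 4.06 in SKR6LR, against 3.59, 3.54 and 3.76 in SKR6. The rise of 0.58 ± 0.09 (SE; adjusted p = 0.000151 in limma) was not shared by the other probe sets. Of these, 1555777_at was lower by 0.26 (adjusted p = 0.0450) and the remaining 2 were not called.

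FN1, the fibronectin gene, was at 13.96, 14.00 and 14.10 in SKR6LR, against 9.36, 9.32 and 9.29 in SKR6. The 2 lines lay far apart, by 4.69 ± 0.06 (SE), or 25.9-fold (adjusted p = 1.12e-14 in limma). All 7 probe sets rose, by 1.40 to 5.11. The least of these, 214701_s_at, was also dimmer, at 7.57 in SKR6LR and 6.17 in SKR6.

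EDIL3, which encodes a secreted integrin ligand known from embryonic vessels, was at 11.46, 11.19 and 11.51 in SKR6LR, against 4.32, 4.10 and 3.91 in SKR6. The SKR6 arrays were near the low end of the scale and the SKR6LR arrays far above it. The difference was 7.27 ± 0.11 (SE; adjusted p = 3.64e-14 in limma). Its 2 dimmer probe sets differed by 0.92 (1558643_s_at, adjusted p = 0.000137) and 0.28 (207379_at, adjusted p = 0.102).

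FBN1 was at 11.50, 10.64 and 10.91 in SKR6LR, against 5.20, 5.52 and 5.47 in SKR6. The arrays did not overlap, and the difference was 5.62 ± 0.17 (SE; adjusted p = 1.54e-11 in limma). Its 2 other probe sets rose by 4.14 and 2.68. FBN2, which encodes a fibrillin mostly made during development, was at 5.62, 7.70 and 7.60 in SKR6LR, against 3.68, 3.64 and 4.09 in SKR6. Replicate 1 of SKR6LR lay well below the other 2 but above every SKR6 array. The difference was 3.17 ± 0.40 (SE), with an adjusted p of 2.01e-05 in limma and the widest error of the 10 genes. FBN2 carries this error in every comparison, as it pools SDs of 1.17 in SKR6LR, 0.20 in SKR6CA, 0.085 in SKR6-Vector and 0.25 in SKR6. Of its 2 dimmer probe sets, 215717_s_at was higher by 1.22 (adjusted p = 0.00267) and 1554737_at differed by 0.19 and was not called (adjusted p = 0.12).

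FBLN5 moved the other way. Its only probe set was at 5.60, 5.44 and 5.23 in SKR6LR, against 7.81, 7.58 and 7.63 in SKR6. Every SKR6LR array was below every SKR6 array, by 2.25 ± 0.10 (SE) on average, or 4.76-fold lower (adjusted p = 6.34e-10 in limma). LOX was at 4.47, 4.41 and 4.05 in SKR6LR, against 4.26, 4.22 and 4.19 in SKR6, and these overlapped. Its difference of 0.09 ± 0.10 (SE) was not called (adjusted p = 0.492 in limma), and all 3 of its probe sets stayed between 3.54 and 4.47 in all 12 arrays. Without SKR6LR replicate 3, the array with the large actin imbalance, LOX was called higher by 0.22 (adjusted p = 0.0254).

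SKR6CA was compared with SKR6-Vector, which carries the same vector and selection, to ask what active p65 added. Of the 10 genes 1 was higher, 4 were lower and 5 were not called, where 10.9% of all genes were called higher and 14.2% lower. The median difference of the 10 was -0.14, against 0.003 over all genes. The genes that moved were FN1, EDIL3, both fibrillins and FBLN5. The matricellular genes SPARC, THBS1, TNC and POSTN were not called on their leading probe sets.

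FN1 was at 12.50, 12.53 and 12.49 in SKR6CA, against 13.43, 13.33 and 13.45 in SKR6-Vector. The 2 groups of arrays did not overlap, and the difference of -0.90 ± 0.06 (SE; adjusted p = 4.77e-07 in limma) was a 1.86-fold lower level. Of its 7 probe sets 6 were called lower, where 12.2% of all single-gene probe sets were, and 214701_s_at was not (-0.24, adjusted p = 0.0965).

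EDIL3 was at 4.03, 4.26 and 4.25 in SKR6CA, against 7.43, 7.50 and 7.47 in SKR6-Vector. SKR6CA was thus near the low end of the scale, 3.29 ± 0.11 (SE) below SKR6-Vector (adjusted p = 8.25e-10 in limma). The dimmer probe sets 1558643_s_at and 207379_at differed by -0.06 and 0.15 and were not called.

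FBN1 was at 6.13, 6.36 and 6.18 in SKR6CA, against 8.38, 8.34 and 8.43 in SKR6-Vector. FBN2 was at 3.89, 4.30 and 4.15 in SKR6CA, against 8.21, 8.15 and 8.32 in SKR6-Vector. Neither gene had overlapping arrays. FBN1 was lower by 4.48-fold (-2.16 ± 0.17, SE; adjusted p = 1.42e-06 in limma), and FBN2, near the low end in SKR6CA, differed by -4.11 ± 0.40 (SE; adjusted p = 1.08e-05). The second FBN1 probe set, 202765_s_at, fell by 1.63, while the third, 235318_at, differed by -0.48 (adjusted p = 0.121). The 2 dimmer FBN2 probe sets, averaging 4.09 or less in both lines, were not called.

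FBLN5 was at 9.89, 9.69 and 9.71 in SKR6CA, against 6.52, 6.66 and 6.63 in SKR6-Vector. SKR6CA stood above all other lines, by 3.16 ± 0.10 (SE) over SKR6-Vector, or 8.92-fold (adjusted p = 4.15e-10 in limma). It was the only one of the 10 that was called higher on its leading probe set.

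SPARC differed by -0.02 ± 0.11 (SE; adjusted p = 0.954 in limma), TNC by -0.06 ± 0.24 (adjusted p = 0.906), POSTN by 0.14 ± 0.09 (adjusted p = 0.364) and LOX by 0.12 ± 0.10 (adjusted p = 0.478). THBS1 differed between its probe sets. The leading one was at 10.63, 10.94 and 10.80 in SKR6CA, against 10.98, 10.91 and 11.12 in SKR6-Vector, with a difference of -0.22 (adjusted p = 0.146 in limma). The fourth, 235086_at, was at 7.51, 7.70 and 7.74 in SKR6CA, against 6.28, 6.44 and 6.38 in SKR6-Vector, and was called higher by 1.28 (adjusted p = 3.08e-06). The other 5 differed by -0.20 to 0.26 and were not called. Which transcript form 235086_at measures is not given in the sources used here.

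**Figure D2:**
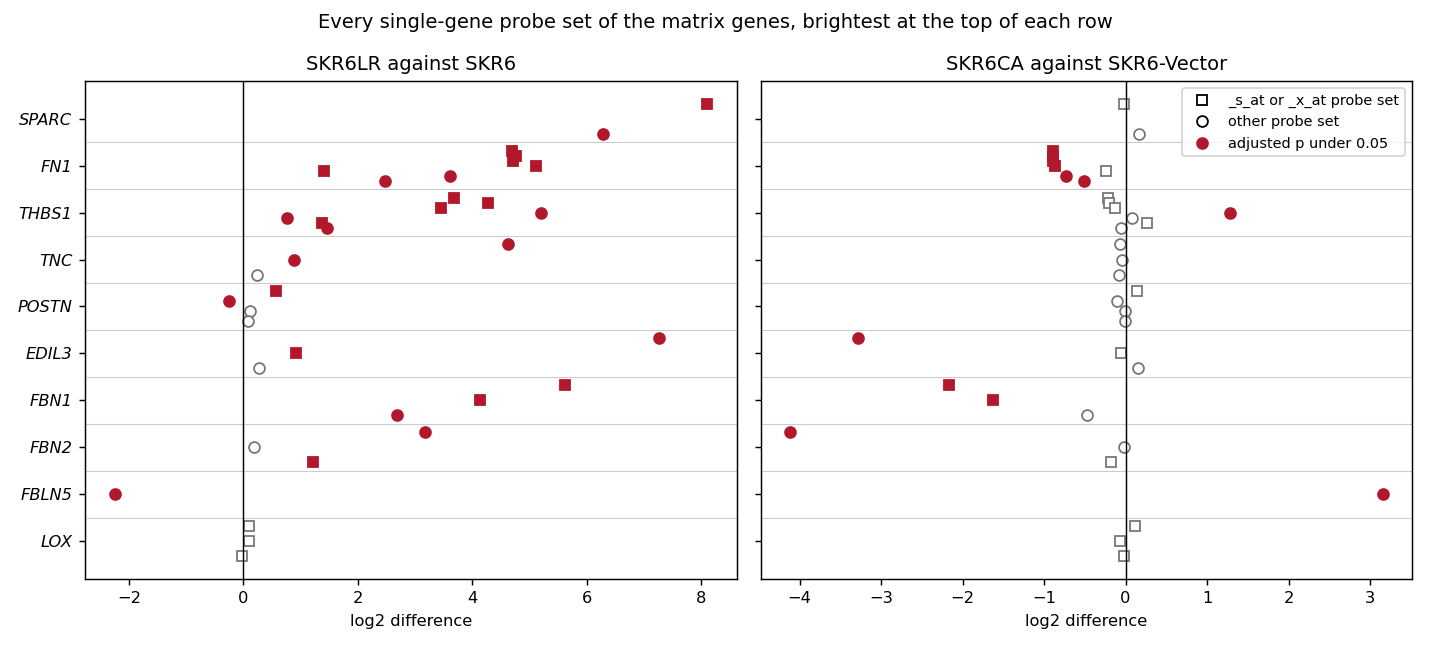
Log2 difference of every single-gene probe set of the 10 genes in SKR6LR against SKR6 (left) and SKR6CA against SKR6-Vector (right), with the brightest probe set at the top of each gene's row and filled symbols for an adjusted p under 0.05. Squares are _s_at or _x_at probe sets, which can match more than 1 transcript. The 7 FN1 probe sets lie to the right of 0 on the left panel and to the left of 0 on the right panel, while 1 THBS1 probe set lies at 1.28 on the right panel, away from the other 6.

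SKR6-Vector was set against SKR6, since this pair differs in virus and puromycin selection but not in p65. Of the 10 genes 5 were higher, 1 was lower and 4 were not called, where 11.4% of all genes were called higher and 12.3% lower. FN1 averaged 13.40 ± 0.07 in SKR6-Vector and 9.32 ± 0.03 in SKR6 (SD, n = 3 each), a 16.9-fold difference. EDIL3 averaged 7.47 ± 0.03 in SKR6-Vector and 4.11 ± 0.21 in SKR6, and FBN2 8.22 ± 0.09 in SKR6-Vector and 3.80 ± 0.25 in SKR6. The FBN2 difference was 4.42 ± 0.40 (SE; adjusted p = 6.39e-06 in limma). The 2 dimmer probe sets of FBN2 (0.16 and 0.22) and those of EDIL3 (0.17 and -0.18) were not called.

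FBN1 was higher in SKR6-Vector than in SKR6 by 2.99 (adjusted p = 7.71e-08 in limma) and THBS1 by 1.51 (adjusted p = 2.43e-07), though 3 dimmer THBS1 probe sets, 215775_at (0.04), 201107_s_at (0.20) and 239336_at (0.19), were not called, while FBLN5 was lower by 1.07 (adjusted p = 6.95e-06). SPARC (-0.23, adjusted p = 0.205), TNC (0.16), POSTN (-0.04) and LOX (0.01) were not called. Without SKR6 replicate 3, the lowest SKR6 array for SPARC, SPARC was called lower in SKR6-Vector (-0.38, adjusted p = 0.0155) and in SKR6CA (-0.39, adjusted p = 0.0142), each against SKR6.

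The comparison of SKR6CA with SKR6 shares its arrays with the others, so its values are set beside them and not counted as further evidence. Of the 10 genes 4 were higher, 0 were lower and 6 were not called in limma, where 9.23% of all genes were called higher and 13.3% lower; at an unadjusted p under 0.05 there were also 0 lower. FN1 was higher by 3.18, FBLN5 by 2.09, THBS1 by 1.30 and FBN1 by 0.82 (adjusted p = 0.00395). On the other 2 FBN1 probe sets the difference was 0.42 (adjusted p = 0.339) and 0.15 (adjusted p = 0.695). EDIL3 differed by 0.07 ± 0.11 (SE; adjusted p = 0.749) and FBN2 by 0.31 ± 0.40 (SE; adjusted p = 0.691), so for these genes SKR6-Vector was the line that stood apart from both. For FN1 and FBN1 the level in SKR6CA lay between those of SKR6-Vector and SKR6. For FBLN5 SKR6CA lay above both.

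**Figure D3:**
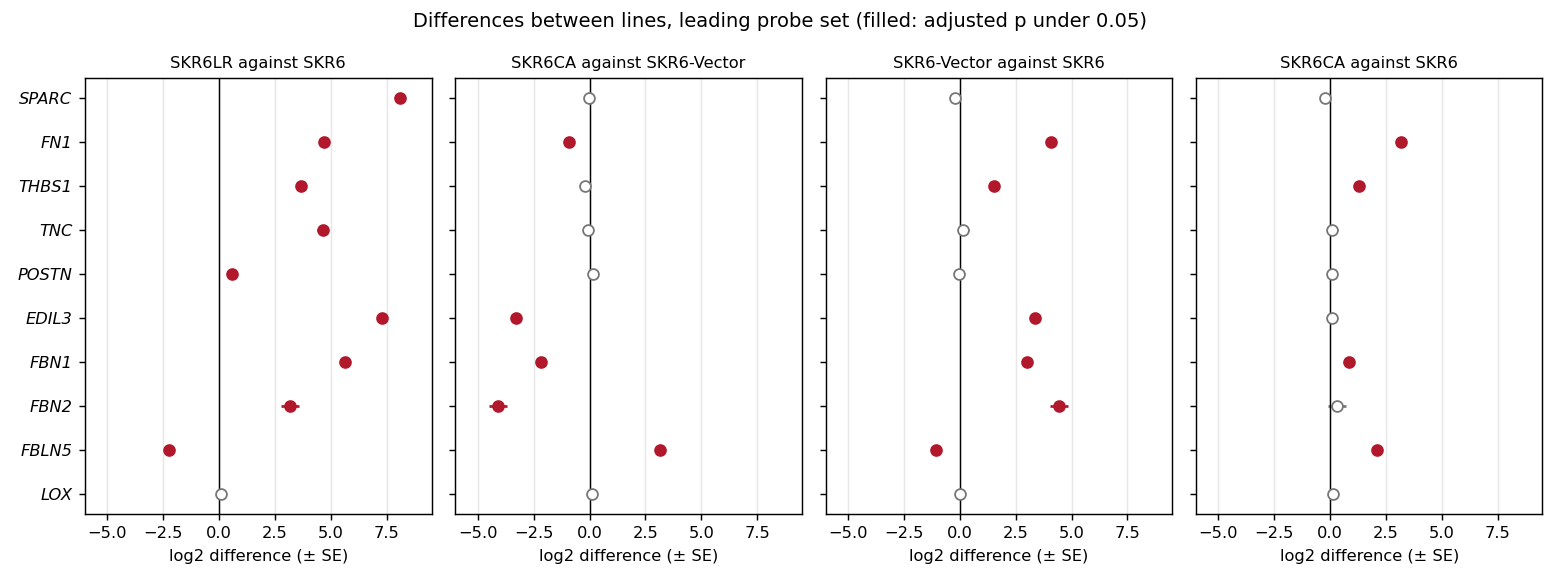
Log2 differences (± SE, limma) of the leading probe set of each gene in the 4 comparisons, filled where the adjusted p was under 0.05. EDIL3 and FBN2 are at 3.36 and 4.42 in SKR6-Vector against SKR6 and at -3.29 and -4.11 in SKR6CA against SKR6-Vector, comparisons that share the 3 SKR6-Vector arrays, and near 0 in SKR6CA against SKR6.

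The lines were ordered by their mean for each gene. Of the 30 steps between neighbouring lines, 18 were called, where 22.8% of such steps were over all genes. FN1, FBN1 and FBLN5 had 3 called steps each. For FN1 and FBN1 the falling order was SKR6LR, SKR6-Vector, SKR6CA and SKR6. For FBLN5 it was SKR6CA, SKR6, SKR6-Vector and SKR6LR. For SPARC, TNC and POSTN the called step was that below SKR6LR, and no difference among SKR6CA, SKR6-Vector and SKR6 was called. THBS1 was highest in SKR6LR and lowest in SKR6, with no called step between SKR6-Vector and SKR6CA. EDIL3 was highest in SKR6LR, then in SKR6-Vector, with no called step between SKR6CA and SKR6. LOX had no called step.

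On leading probe sets FBN2 was the only one of the 10 genes whose mean was lower in SKR6LR than in SKR6-Vector while both were above SKR6. The difference was -1.25 ± 0.40 (SE; adjusted p = 0.0219 in limma). Without the low SKR6LR replicate 1 it was -0.57 (adjusted p = 0.00454). The call was lost without SKR6-Vector replicate 1 (adjusted p = 0.0514) or replicate 3 (adjusted p = 0.0608), and on the mean of its 3 probe sets (-0.07, adjusted p = 0.827). Another FBN2 probe set, 215717_s_at, was higher in SKR6LR than in SKR6-Vector by 1.00 (adjusted p = 0.00991). FN1 was higher in SKR6LR than in SKR6-Vector by 0.62 (adjusted p = 2.11e-06), where its difference from SKR6 was 4.69. Its dimmer probe set 214702_at was higher by 1.57 against SKR6-Vector and by 2.48 against SKR6, and 1558199_at by 1.65 and 3.62. EDIL3 was higher by 3.92 (adjusted p = 1.03e-11).

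The difference SKR6LR minus SKR6 is called the effect of lapatinib selection here, though it also holds that of any drug present in culture. It and the effect of active p65 (SKR6CA minus SKR6-Vector) use different arrays, and their difference was tested in the same fit. Of the 10 genes 8 had a more positive effect in the lapatinib-selected line, 1 a more negative one and 1 no called difference, where 19.3% of all genes were called higher and 24.8% lower. SPARC differed by 8.12 ± 0.16 (SE; adjusted p = 9.15e-13 in limma) and TNC by 4.69 ± 0.34 (adjusted p = 1.44e-07). The effect of active p65 on these genes was not called, at -0.02 for SPARC and -0.06 for TNC. EDIL3, FBN1, FBN2, FN1 and FBLN5, 5 of the 10, were called in opposite directions with arrays that did not overlap, as 8.74% of all genes were. LOX had none called (-0.03, adjusted p = 0.892).

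Across the 12 arrays the genes fell into like patterns, given as descriptions, since arrays of 1 line repeat its level. SPARC and TNC had a Pearson r of 0.987, as had EDIL3 and FBN1, while FBN1 and FBN2 had 0.728 and SPARC and FBN2 0.342. FBLN5 had a negative r with each of the other genes save LOX, from -0.398 with FN1 to -0.865 with EDIL3. Among the 4005 genes whose line means spanned at least 1, those most like SPARC were CENPV (r of 0.9996) and TIGAR (0.9991), and 779 had an r above 0.95, so that its pattern was a common one. For TNC 769 genes passed that mark and for EDIL3 165, with TUFT1 (0.9964) and ANXA2P2 (0.996) the nearest. Fewer genes were like FN1, for which 25 passed 0.95 with SMAD3 (0.9926) and SOX4 (0.9925) the nearest. FBN2 had 6, led by RNF135 (0.9703) and QPCT (0.9678), and FBLN5 had 27, led by ARFIP2 (0.9865) and SYT7 (0.986). For THBS1 the nearest were FHL2 (0.9949) and TES (0.9946), for FBN1 NUDT19 (0.9928) and TCP11L1 (0.992), for TNC TUBB2B (0.9982) and HERC6 (0.9979), and for POSTN MEX3B (0.955) and SH3PXD2B (0.9531).

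The related families are described by their called genes, to be read against all genes. Their lists too were chosen with earlier results of these data known, so the shares are descriptions. Of all genes 21.0% were higher and 30.3% lower in SKR6LR against SKR6, and 10.9% higher and 14.2% lower in SKR6CA against SKR6-Vector. Of 27 other matricellular genes 8 rose (29.6%) and 5 fell (18.5%) in SKR6LR against SKR6, with a median of 0.07 over the list, against -0.058 over all genes. Those that moved most were SPOCK1, a testican proteoglycan of the SPARC family (9.64 ± 0.44 in SKR6LR and 5.32 ± 0.39 in SKR6, SD, n = 3 each; adjusted p = 1.86e-09 in limma), MATN2, a matrilin (3.96 higher), and SPP1, osteopontin (3.09 higher). In SKR6CA against SKR6-Vector 3 of the 27 rose (11.1%) and 4 fell (14.8%), shares near those over all genes. CCN2, connective tissue growth factor, rose by 1.10 (adjusted p = 0.000268) and SMOC1, a SPARC-related protein, by 1.04, while SPOCK1 fell by 1.31 (adjusted p = 0.000588).

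Of 20 other elastic-fibre and microfibril genes, 9 rose (45%) and 4 fell (20%) in SKR6LR, with a median of 0.19. MFAP5, a microfibril protein that binds fibrillin, was at 8.47 ± 0.02 in SKR6LR and 4.20 ± 0.20 in SKR6 (SD, n = 3 each; difference 4.27, adjusted p = 3.20e-12 in limma). EMILIN2 rose by 3.49 and ADAMTSL4, which binds fibrillin microfibrils, by 2.03. In SKR6CA against SKR6-Vector 4 rose (20%) and 2 fell (10%). EFEMP1, which encodes fibulin-3, was at 11.95 ± 0.01 in SKR6CA and 9.86 ± 0.05 in SKR6-Vector (SD, n = 3 each; difference 2.09, adjusted p = 7.75e-09), EMILIN2 rose by 0.64 and FBLN1, fibulin-1, by 0.54 (adjusted p = 0.000301).

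Of 18 crosslinking and matrix-processing enzymes besides LOX, 8 rose (44.4%) and 5 fell (27.8%) in SKR6LR. TGM2, transglutaminase 2, was higher by 4.93 (adjusted p = 3.29e-07 in limma) and LOXL2, a relative of LOX, by 4.30 (adjusted p = 1.32e-11), whereas PLOD2, a lysyl hydroxylase of collagen, was lower by 2.79 (adjusted p = 7.15e-12). TGM2 had a wide spread in SKR6LR, at 10.44 ± 1.21 against 5.50 ± 0.14 in SKR6 (SD, n = 3 each). In SKR6CA against SKR6-Vector 3 rose (16.7%) and 2 fell (11.1%), with SERPINH1, a chaperone of collagen, lower by 1.32, LOXL1, which crosslinks elastin, higher by 0.90, and PLOD1 higher by 0.43.

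Of 13 laminin and basement-membrane genes 5 rose (38.5%) and 2 fell (15.4%) in SKR6LR, with LAMC1 higher by 4.88 and LAMB3 by 3.65, both laminin chains. LAMB3 had a wide spread in SKR6LR, at 9.93 ± 1.10 against 6.28 ± 0.20 in SKR6 (SD, n = 3 each). In SKR6CA 1 rose (7.69%) and 3 fell (23.1%) against SKR6-Vector, the laminin chain LAMB2 by 0.79 and LAMA5 by 0.51, with HSPG2 (perlecan) higher by 0.56. Of 12 secreted proteoglycans 3 rose (25%) and 2 fell (16.7%) in SKR6LR, where 21.0% and 30.3% of all genes did, among them SRGN, serglycin (12.26 ± 0.53 in SKR6LR and 4.05 ± 0.08 in SKR6, SD, n = 3 each; adjusted p = 1.18e-12 in limma). BGN, biglycan, rose by 1.28 and VCAN, versican, by 0.65. None of the 12 was called in SKR6CA against SKR6-Vector by limma at an adjusted p under 0.05.

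Of 14 receptors for these proteins 7 rose (50%) and 4 fell (28.6%) in SKR6LR. ITGB8, the beta subunit of an integrin that activates latent TGF-beta, was at 11.61 ± 0.08 in SKR6LR and 4.21 ± 0.04 in SKR6 (SD, n = 3 each; adjusted p = 1.27e-14 in limma). ANXA2, annexin A2, rose by 1.95, on a probe set of the _x_at kind, and ITGA9, an integrin subunit that binds tenascin-C, fell by 2.82. In SKR6CA against SKR6-Vector 3 rose (21.4%) and 5 fell (35.7%); ITGA9 rose by 1.07, CD36, a thrombospondin receptor, fell by 0.89 and ANXA2 fell by 0.81.

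The TGF-beta list holds LRRC32 and ligands, receptors and SMADs of a pathway known to induce several of the 10 genes. It includes inhibitory SMADs, so its counts give no direction for the pathway, whose part in these data was not tested. Of 13 measured 8 rose (61.5%) and 3 fell (23.1%) in SKR6LR, with a median of 1.03. TGFBR3, betaglycan, was higher by 5.65 (adjusted p = 1.08e-11 in limma) and INHBA, an activin chain, by 3.05 (adjusted p = 5.31e-06), whereas TGFB3 was lower by 3.35 (adjusted p = 6.94e-12). INHBA too had a wide spread in SKR6LR, at 8.16 ± 0.97 against 5.11 ± 0.25 in SKR6 (SD, n = 3 each). In SKR6CA against SKR6-Vector 1 rose (7.69%) and 5 fell (38.5%), with a median of -0.18. The receptor TGFBR1 was lower by 0.70, TGFBR2 by 0.59 and the inhibitory SMAD6 by 0.68 (adjusted p = 0.000987).

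**Figure D4:**
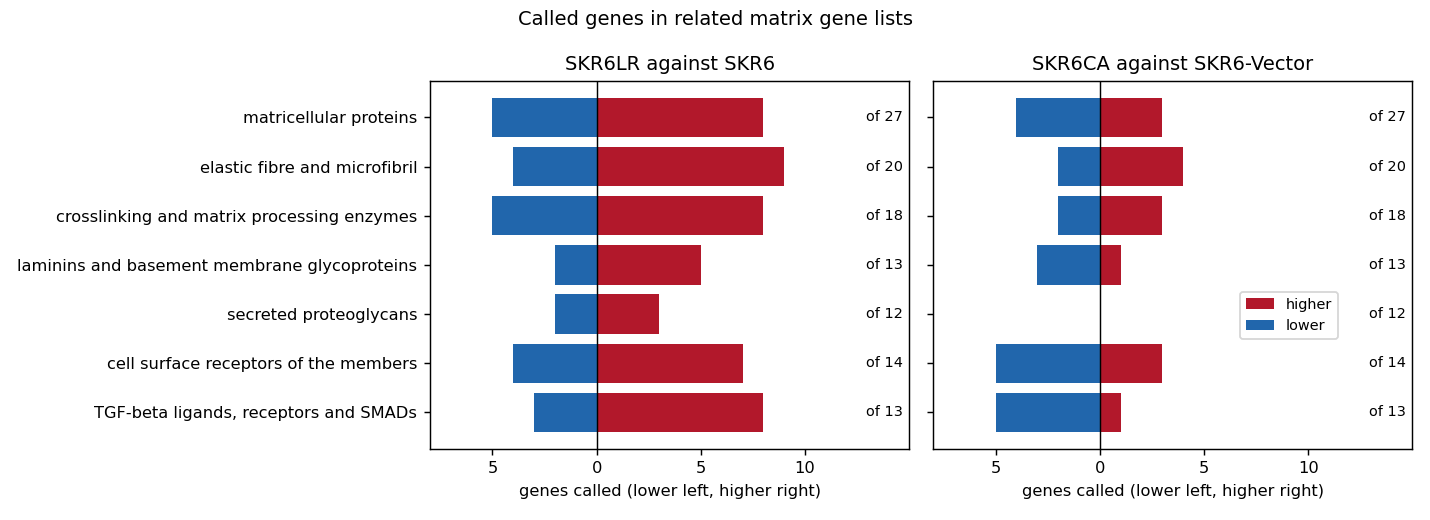
Number of genes called higher (to the right of 0) or lower (to the left) at an adjusted p under 0.05 in 7 lists of related genes, none of which holds the 10 genes, for SKR6LR against SKR6 and SKR6CA against SKR6-Vector; the number measured stands at the right. In SKR6LR the TGF-beta list has 8 of 13 genes higher and 3 lower, where 21.0% and 30.3% of all genes were, and in SKR6CA it has 1 higher and 5 lower, where 10.9% and 14.2% were.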

How the data were processed

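Total RNA from 12 cultures, 3 of each of 4 lines, was copied from an oligo-dT primer, amplified with biotinylated nucleotides and measured on 3′ expression arrays. The authors deposited log2 values made with RMA, which the submitters' processing notes name beside limma without a version or parameters; what limma was used for is not stated there. RMA sets each array on a common distribution and compresses differences at low values. Of 54675 probe sets 41097 had 1 gene in the platform annotation, 1801 had several and 11777 were unnamed here; symbols were updated by gene ID through RefSeq for 41043, and 54 kept the older one. Of 162 genes in all lists 155 were measured.

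One limma fit (version 3.58.1, R 4.3.3; lmFit and eBayes) over the 41097 probe sets gave a mean per line, with all 12 arrays, no filter on low values and p-values adjusted by Benjamini and Hochberg within each comparison. For each probe set the spread was pooled over the 4 lines. A gene's leading probe set was that with the highest mean over the arrays. The fit was tested on simulated data with the same spread in every line, so the wider spread of SKR6LR was not tried.

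The genes, lists and comparisons were chosen with earlier results of these data known, and the motif letters with the promoter windows in view. Named genes were the 10, up to 3 called genes with the largest differences from each of 7 related lists in SKR6LR against SKR6 and in SKR6CA against SKR6-Vector, RELA, ERBB2 and EGFR as label checks, and the 2 genes most like each of the 10 save LOX, which was called in none of the comparisons. EGFR averaged 13.26 in SKR6LR, 11.10 in SKR6CA, 10.64 in SKR6-Vector and 8.58 in SKR6. The marker lists were for fibroblasts, epithelial cells, the ERBB2 amplicon, endothelial cells and leukocytes; the amplicon list averaged 10.83 to 11.12 in SKR6LR arrays and 11.88 to 12.03 in the others. The epithelial list averaged 11.76 to 12.05 in SKR6LR and 11.80 to 11.99 in the others, the endothelial list 5.95 to 6.03 in SKR6LR, 5.69 to 5.82 in SKR6CA, 5.57 to 5.73 in SKR6-Vector and 5.11 to 5.19 in SKR6, and the leukocyte list (4 of 5 measured) 5.47 to 5.53 in SKR6LR and 4.97 to 5.15 in the others. The arrays' number limits the precision.

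Settings varied 1 at a time were a replicate block, each array left out, cyclic loess, median centring, a filter on low values, a mean-variance trend with robust fitting, 1 weight per line, only the compared arrays, an adjustment over leading probe sets alone, the mean of a gene's probe sets, leaving out those ending in _x_at or _s_at, and an adjusted p under 0.01. Leaving out arrays for the order of FBN2 was added after the data were seen.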

Additional observations from a re-analysis of the deposited data

Results flagged for a closer look

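Of the 10 genes 5 were called in opposite directions in SKR6LR minus SKR6 and in SKR6CA minus SKR6-Vector. In both, every array of a line lay on the same side of its comparison line, and the same held for 8.74% of all 19775 genes. These 5 genes were picked for opposite effects, so the difference between the effects is given as a description, with no test. EDIL3 had effects of 7.27 and -3.29, which differ by 10.56. FBN1 had effects of 5.62 and -2.16, differing by 7.78. For FBN2, at 3.17 and -4.11, the effects differed by 7.28, with SKR6LR replicate 1 below the other SKR6LR arrays. For FN1, at 4.69 and -0.90, the effects differed by 5.59. FBLN5, at -2.25 and 3.16, was the gene with the negative difference, at -5.41. These 5 are also the genes that differed between SKR6-Vector and SKR6 other than THBS1, and SKR6-Vector is the line that the active p65 effect is measured against. Against SKR6, SKR6CA was higher for FN1 (3.18), FBN1 (0.82) and FBLN5 (2.09). It was not called for EDIL3 (0.07) or FBN2 (0.31). Only FBLN5 was thus called opposite to its SKR6LR difference against both reference lines.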

How the results depend on the processing

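Of the single-gene differences recomputed without each array, 586 kept their direction and their side of the threshold, 11 changed sign and 3 became called. Under the other alternatives 508 kept both, 12 changed sign and 5 lost their call. Many of these differences could not change sign, so the counts overstate how much was tried. Leaving out an array outside the comparison changes only the estimate of the spread, as do the replicate block and 1 weight per line. The threshold of 0.01 changes neither. With the replicate block the counts of called genes were as without it, 8 higher and 1 lower in SKR6LR against SKR6, and 1 higher and 4 lower in SKR6CA against SKR6-Vector. No shared deviation of same-numbered cultures was seen (r of -0.0547 to 0.0771 over 18 pairs). Whether the numbers mark cultures handled together is not given. Without _x_at and _s_at probe sets, 2 genes were called higher in SKR6CA against SKR6-Vector, THBS1 joining at 1.28, and 2 were called lower in SKR6LR against SKR6, POSTN joining at -0.26. In that setting SPARC (0.16) and POSTN (-0.11) changed sign in SKR6CA against SKR6-Vector. SPARC (0.027) and POSTN (-0.18) did so in SKR6CA against SKR6, and POSTN in the difference of effects (-0.15). None of these was called. There FBN1 lost its call in SKR6CA against SKR6-Vector (-0.48, adjusted p = 0.118 in limma), where 3 genes were called lower. It also lost its call in SKR6CA against SKR6 (0.15, adjusted p = 0.701), where 3 were called higher. With the mean of probe sets SPARC (0.074) and THBS1 (0.15) changed sign in SKR6CA against SKR6-Vector, TNC (-0.046) and POSTN (-0.024) in SKR6CA against SKR6, and LOX in the difference of effects (0.046), and FBN1 lost its call in SKR6CA against SKR6 (0.46, adjusted p = 0.0972) and POSTN its call in the difference of effects (0.12, adjusted p = 0.172), as it did at an adjusted p under 0.01 (0.44, adjusted p = 0.016), so that 7 genes, not 8, were higher in SKR6LR there. These settings replace the leading probe set by others, so they measure other parts of the transcript or other transcripts.

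With 1 array left out, genes called lower numbered 1 to 2 in SKR6-Vector against SKR6 and 0 to 1 in SKR6CA against SKR6, SPARC being the added gene without SKR6 replicate 3. The differences that changed sign were never called: -0.093 to 0.045 for SPARC and -0.14 to 0.0014 for TNC in SKR6CA against SKR6-Vector, -0.10 to 0.020 for POSTN and -0.030 to 0.062 for LOX in SKR6-Vector against SKR6, -0.031 to 0.18 for EDIL3 in SKR6CA against SKR6, and -0.11 to 0.099 for LOX in the difference of effects. The filter on low values left POSTN and LOX out, and the setting without _x_at and _s_at left LOX out. Cyclic loess raised the share of all calls that were higher to 52.7% in SKR6LR against SKR6, against 41.0% as deposited, and to 54.9%, against 43.8%, for the difference of effects, with the counts of the 10 genes as before. The related lists were rescaled after seeing the data: under cyclic loess 3 matricellular and 2 receptor genes were lower in SKR6LR, with median centring 2 laminin-list genes were higher in SKR6CA, and the other list counts moved by 1.5 times or less. The cause of these shifts was not tested.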
